A study of Ovis aries with 32 samples.

Results

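FAM13A, a protein-coding gene named at human loci for body fat distribution, was followed across 4 tissues of Tan sheep, which store fat in the tail, together with its relatives FAM13B and FAM13C. These 3 genes were taken by name out of 30722 genes in the deposited table. FAM13A was chosen by its values in the tail fat libraries of both diets, which were lower in sheep fed succinic acid, so its difference between diets in tail fat is given as a description with no test. FAM13B and FAM13C were taken as its family, not for their values.

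Male sheep aged 3 months at the start received pellets in which succinic acid (SA), a metabolite of mitochondrial respiration, made up 1% of the dry matter, or the same basal pellets alone (CON). Feeding lasted 60 days after 10 days of adaptation, with 12 sheep per diet, of which 4 per diet gave tissue for RNA sequencing. The 8 groups were SA and CON libraries labelled hypothalamus, pituitary gland, liver and tail adipose tissue (tail fat), with 4 libraries per group and 32 in all. All groups share breed, sex and age, and no genetic change is stated. The labels do not say which libraries of different tissues came from the same animal, and p-values measure the spread between these libraries. Tests that span several tissues took the libraries as independent and make no allowance for shared animals.

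FAM13A, FAM13B and FAM13C form a family of related proteins. In mice, FAM13A is abundant in fat cells and has been reported to keep the insulin receptor substrate IRS1 from being degraded, and in the lung to act with protein phosphatase 2A and β-catenin, the effector of Wnt signalling. Human variants at the locus have been linked to waist-to-hip ratio and lung function, and FAM13B lies at a human locus for atrial fibrillation.

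Expression was given as TPM (transcript abundance scaled to a fixed total), a relative measure per transcript length, so the depth of the libraries is unknown and a transcript that takes more of a library lowers the others. Mitochondrial mRNA held 51.7% to 70.9% of TPM in the liver SA libraries and 20.2% to 27.8% in the liver CON libraries. In tail fat it held 25.6% to 50.2% in SA and 22.5% to 70.6% in CON. In the libraries labelled hypothalamus the neuropeptide genes AVP and HCRT had medians of 0.245 and 1.65 TPM, and in those labelled pituitary the hormone genes PRL and CGA were listed at a median of 0. Both sets were rich in brain transcripts, with medians of 696 and 1075 TPM of the synaptic gene SNAP25, so the labels are used below only as names. Liver and tail fat carried their defining genes, with a median of 34370 TPM of albumin (ALB) in liver and 2392 TPM of adiponectin (ADIPOQ) in tail fat. Tail fat libraries SA 1 and CON 2 stood apart, with CCDC152 at 0.07 TPM in SA 1 and 0.12 TPM in CON 2, against 148 to 186 TPM in the other SA libraries and 57.8 to 162 TPM in the other CON libraries.

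In tail fat, FAM13A (ENSOARG00020022316) stood under 1 TPM in every SA library and above 6 TPM in every CON library. Its values were 0.86, 0.57, 0.63 and 0.28 TPM in SA 1 to SA 4, against 12.55, 22.5, 6.32 and 21.13 TPM in CON 1 to CON 4. The groups did not overlap. The means were 0.585 ± 0.239 TPM in SA and 15.6 ± 7.61 TPM in CON (SD, n = 4 each), so that the CON mean was 26.7 times the SA mean. On the log2(TPM + 1) scale, which understates the change of low genes, the difference SA minus CON was −3.26 with a standard error (SE) of 0.46. Among 11185 genes tested in tail fat, 2 had a larger fall on this scale, and neither has a name in the table. In that contrast 78 genes, 0.697% of those tested, had a limma adjusted p under 0.05, with 0.277% higher and 0.42% lower in SA. In bulk tissue, fewer cells that express a gene and less RNA per cell cannot be told apart.

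**Figure D1:**
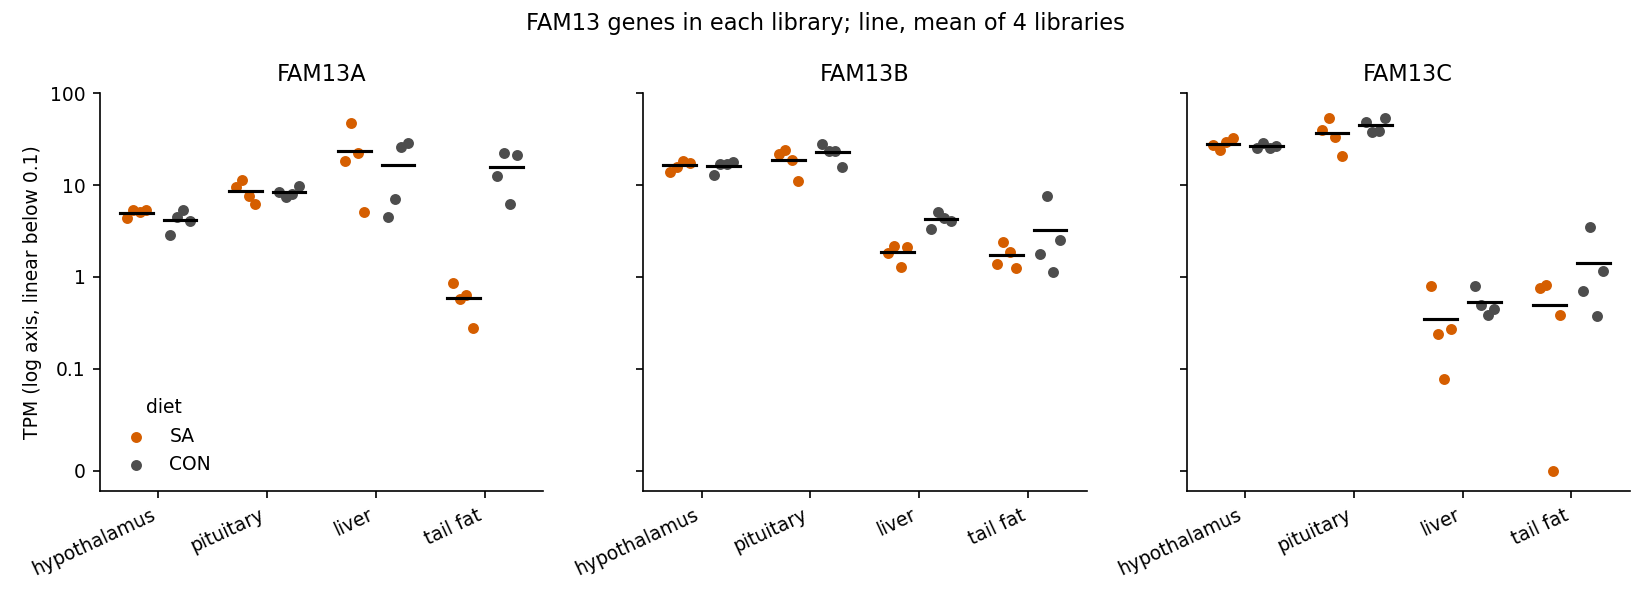
TPM of FAM13A, FAM13B and FAM13C on a log axis (linear below 0.1) for each of the 32 libraries by labelled tissue, SA left of CON, with a line at the mean of 4 libraries. FAM13A lies between 0.28 and 0.86 TPM in tail fat SA and between 6.32 and 22.5 TPM in tail fat CON, while the diets overlap in the other tissues.

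In the 2 libraries low in CCDC152, FAM13A was at 0.86 TPM in SA 1 and 22.5 TPM in CON 2. Without SA 1 and CON 2, a choice made after seeing the data, it was −3.13 with an SE of 0.45. Leaving out 1 library at a time gave −3.61 to −3.05. With mitochondrial and ribosomal RNA removed and the rest rescaled to 1000000, FAM13A stood at 0.65 to 1.2 in SA libraries and 23.0 to 57.5 in CON libraries, a difference of −4.04 with an SE of 0.35. That rescaling moved the median of all tail fat genes to −0.40, against −0.06 in TPM as deposited.

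Adipocyte markers overlapped between the diets in summed level. Of 22 adipocyte markers found in the table, 21 were tested and 17 were higher in SA, with a median change of 0.64 against −0.06 for all genes tested, and 1 of them, the lipid synthesis enzyme AGPAT2, passed the test (change 2.39, SE 0.49, limma adjusted p = 0.0403). AGPAT2 did not overlap between diets, at 1628 to 6699 TPM in SA and 337 to 1030 TPM in CON. The summed level of the 22 markers ranged from 23479 to 87372 TPM in SA and from 13382 to 87719 TPM in CON. FABP4 was the largest single part of that sum in every library. It held 54388 of 70506 TPM in SA 2, 8016 of 23479 TPM in SA 4 and 62104 of 87719 TPM in CON 2. Adiponectin was at 5419, 2572, 2212 and 1390 TPM in SA 1 to SA 4, against 3295, 9604, 1327 and 1071 TPM in CON 1 to CON 4, and the lipid droplet gene PLIN1 spanned 114 to 688 TPM in SA and 142 to 751 TPM in CON. In both, the diets overlapped. CON 2 and SA 1 had the largest summed adipocyte level of their groups and also the largest FAM13A TPM of their groups. CON 3 and SA 4 had the smallest of both. CON 4 had FAM13A at 21.13 TPM with a summed adipocyte level of 16142 TPM, against 12.55 and 30355 TPM in CON 1. CON 2 and SA 1 also had the lowest mitochondrial share of their groups, at 22.5% and 25.6%. With mitochondrial and ribosomal RNA removed, FAM13A was at 57.5 in CON 4 and 29.9 in CON 2. It was at 1.1999 in SA 3 and 1.1753 in SA 1, so neither CON 2 nor SA 1 was then highest. Markers of 5 other cell types found in fat or near it (fibroblasts, endothelial cells, macrophages, mural cells and skeletal muscle) had 0 members past the limma threshold in tail fat, of 11 fibroblast, 11 endothelial, 8 macrophage, 8 mural and 1 skeletal muscle marker tested, where 0.697% of all genes were called. A count of 0 is near that share. The mural marker RGS5 did not overlap between diets, at 5.33 to 14.96 TPM in SA and 26.52 to 82.81 TPM in CON (change −2.09, limma adjusted p = 0.0607). The other mural markers overlapped. Skeletal muscle markers summed to 1.36 to 52.8 TPM in SA and 5.76 to 115 TPM in CON, and hepatocyte markers to 20.3 to 37.1 TPM in SA and 12.7 to 861 TPM in CON. Among the hepatocyte markers, TTR was at 69.68 TPM in CON 4 and 0 TPM in CON 1 to CON 3. ALB had a median of 1.44 TPM and a maximum of 472.86 TPM over the tail fat libraries. The part of these cell types in the FAM13A values was not tested.

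**Figure D2:**
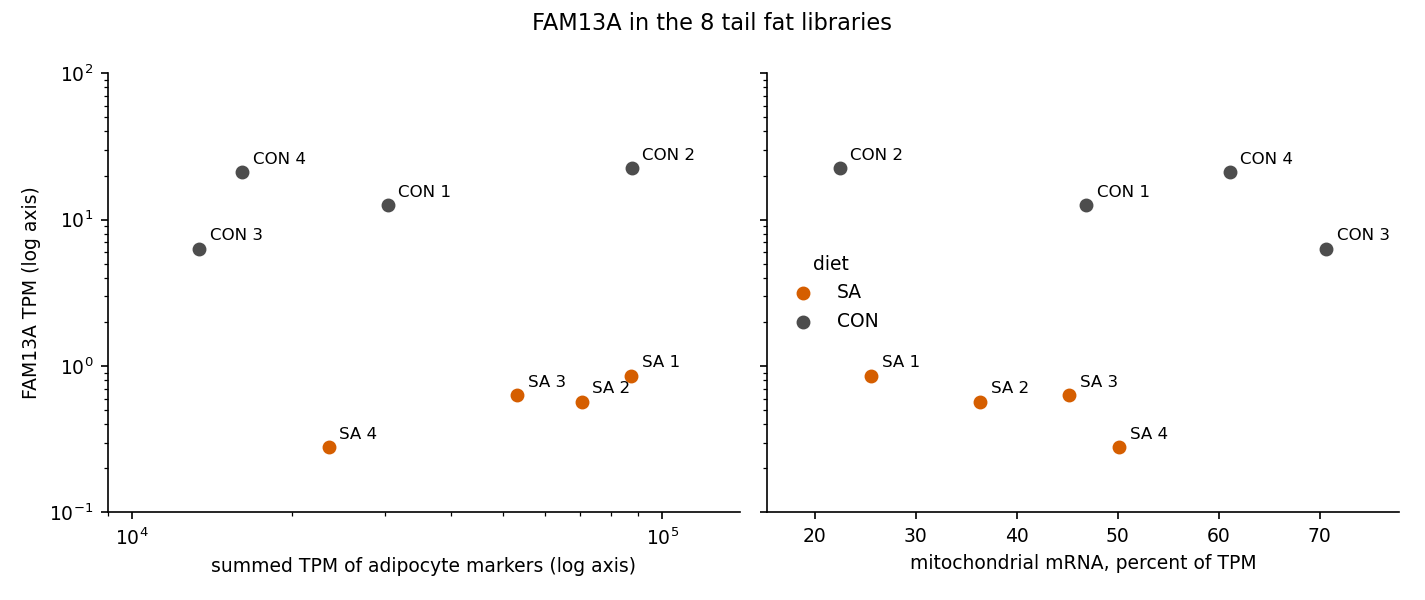
FAM13A TPM (log axis) in the 8 tail fat libraries against the summed TPM of 22 adipocyte markers (left, log axis) and against mitochondrial mRNA as a percent of TPM (right), with SA and CON libraries in different colours. The SA points lie below 1 TPM and the CON points above 6 TPM, while the groups overlap along both horizontal axes.

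In CON sheep FAM13A was highest in liver and tail fat. Liver averaged 16.6 ± 12.5 TPM, tail fat 15.6 ± 7.61, the libraries labelled pituitary 8.41 ± 1.05 and those labelled hypothalamus 4.21 ± 1.01 (SD, n = 4 each). The tail fat values are among those that chose FAM13A, so its differences from tail fat are descriptions with no test. On the log2(TPM + 1) scale, tail fat minus liver was 0.13 and tail fat minus pituitary was 0.69, with overlap of the libraries in both. Pituitary minus hypothalamus was 0.87 (95% confidence interval −0.12 to 1.86, limma adjusted p = 0.302), which did not pass although the libraries did not overlap. The SE of FAM13A was 0.47 in every tissue contrast, because the fit pooled the spread of the 4 CON tissues. Liver and tail fat, which varied most, therefore enter that p. The tail fat values that chose FAM13A also enter the p-values of its liver contrasts.

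Tail fat minus hypothalamus was 1.56 (SE 0.47), with no overlap of libraries. Liver exceeded hypothalamus by 1.42 (SE 0.47, limma adjusted p = 0.0123), but the libraries overlapped, and the call was lost with mitochondrial and ribosomal RNA removed (0.94, limma adjusted p = 0.0651) and without liver CON 3 (1.10, limma adjusted p = 0.0538) or liver CON 4 (1.05, limma adjusted p = 0.056). Liver minus pituitary was 0.56 (limma adjusted p = 0.294), and it passed under quantile normalization (1.55, limma adjusted p = 0.00182). Tail fat minus pituitary was 1.98 under quantile normalization and 1.03 without mitochondrial and ribosomal RNA. Over all genes the share called was 44.1% for tail fat minus liver, 71.4% for tail fat minus pituitary, 67.4% for tail fat minus hypothalamus, 73.1% for liver minus pituitary, 68.2% for liver minus hypothalamus and 13.1% for pituitary minus hypothalamus. In SA sheep the order of the FAM13A means was liver at 23.5, pituitary at 8.71, hypothalamus at 5.04 and tail fat at 0.585 TPM.

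Outside tail fat, FAM13A did not pass the test between diets. In liver it was at 18.48, 47.76, 22.66 and 5.07 TPM in SA 1 to SA 4, against 4.51, 7.13, 25.84 and 28.81 TPM in CON 1 to CON 4. Each diet held low and high livers, and the groups overlapped over most of their range. The change was 0.48 (95% confidence interval −1.16 to 2.12, limma adjusted p = 0.578). When 1 library was left out it ran from 0.03 without SA 2 to 1.04 without SA 4, past the threshold in none of the 8 fits. In this contrast 64.3% of 11582 liver genes were called, 5.21% higher and 59.1% lower, and the median gene changed by −0.83. With mitochondrial and ribosomal RNA removed, the median of all liver genes was −0.01 and FAM13A changed by 1.52 (SE 0.89, limma adjusted p = 0.231). The library with the most FAM13A, SA 2, also had the largest mitochondrial share of the liver libraries.

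In the libraries labelled pituitary, FAM13A was at 9.56, 11.32, 7.72 and 6.24 TPM in SA 1 to SA 4, against 8.34, 7.38, 8.04 and 9.87 TPM in CON 1 to CON 4 (change 0.02, 95% confidence interval −0.55 to 0.59, limma adjusted p = 0.966). In those labelled hypothalamus it was at 4.38, 5.33, 5.09 and 5.37 TPM in SA, against 2.9, 4.47, 5.34 and 4.11 TPM in CON (change 0.23, 95% confidence interval −0.12 to 0.59, limma adjusted p = 0.947). The SA hypothalamus libraries lay within 1 TPM of each other and the CON range covered most of them. In both tissues limma called 0% of genes, 0 of 14126 in hypothalamus and 0 of 14472 in pituitary, with 493 and 218 at an unadjusted p under 0.05. Whether the effect of diet on FAM13A differed among hypothalamus, pituitary and liver was tested as an interaction, which gave an F of 0.226 (limma adjusted p = 0.861). That test called 32.6% of 15960 genes.

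**Figure D3:**
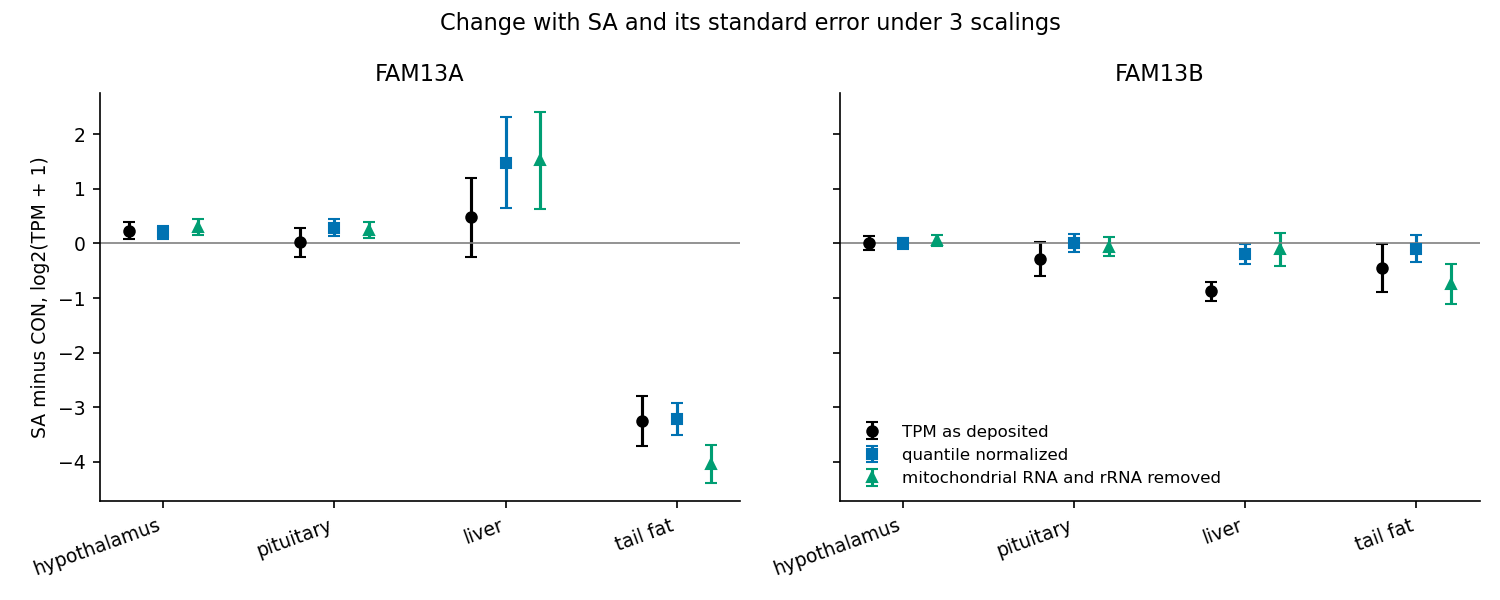
Change by diet (SA minus CON, log2(TPM + 1)) with its SE for FAM13A (left) and FAM13B (right) in the 4 labelled tissues, from TPM as deposited, after quantile normalization, and with mitochondrial and ribosomal RNA removed. FAM13A in tail fat lies between −4.04 and −3.23 under the 3 scalings. FAM13B in liver is at −0.88 in TPM as deposited and at −0.19 and −0.11 under the other scalings.

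FAM13B (ENSOARG00020012442) was higher in the brain libraries than in liver and tail fat. In CON it averaged 22.7 ± 5.00 TPM in pituitary, 16.4 ± 2.23 in hypothalamus, 4.25 ± 0.738 in liver and 3.27 ± 2.95 in tail fat (SD, n = 4 each). Tail fat minus hypothalamus was −2.23 (limma adjusted p = 1.14e-05) and liver minus hypothalamus was −1.73 (limma adjusted p = 0.000159), both without overlap. Pituitary minus hypothalamus was 0.43 (limma adjusted p = 0.511) and tail fat minus liver was −0.51 (limma adjusted p = 0.236). Neither passed, and the libraries overlapped in both. The SE of 0.33 was pooled over the 4 CON tissues, so the wide spread of tail fat enters both p-values. Tail fat minus liver passed without tail fat CON 2 (−0.92, limma adjusted p = 0.00179).

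In tail fat, FAM13B was at 1.4, 2.4, 1.87 and 1.24 TPM in SA 1 to SA 4, against 1.79, 7.61, 1.12 and 2.55 TPM in CON 1 to CON 4. The groups overlapped, and CON 2 stood above the other libraries. The change of −0.45 (95% confidence interval −1.39 to 0.50, limma adjusted p = 0.69) did not pass, and without CON 2 and SA 1 it was 0.019. In liver, FAM13B was at 1.81, 2.2, 1.3 and 2.1 TPM in SA against 3.36, 5.14, 4.4 and 4.08 TPM in CON, with no overlap. It fell by 0.88 (SE 0.18, limma adjusted p = 0.00209), close to the median liver gene at −0.83. The fall was not past the threshold after quantile normalization (−0.19, limma adjusted p = 0.45) or with mitochondrial and ribosomal RNA removed (−0.11, limma adjusted p = 0.819). FAM13B changed by −0.28 in pituitary (limma adjusted p = 0.747) and 0.01 in hypothalamus (limma adjusted p = 0.996). Its interaction of diet and tissue gave an F of 4.37 (limma adjusted p = 0.0675).

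FAM13C (ENSOARG00020022210) was the most abundant of the family in brain libraries and close to 0 elsewhere. In CON it averaged 44.9 ± 7.73 TPM in pituitary, 26.7 ± 1.74 in hypothalamus, 1.43 ± 1.40 in tail fat and 0.533 ± 0.183 in liver (SD, n = 4 each). Tail fat minus pituitary was −4.38 (limma adjusted p = 2.26e-10) and liver minus pituitary was −4.90 (limma adjusted p = 3.43e-11), without overlap. Pituitary minus hypothalamus was 0.71 (limma adjusted p = 0.121) and tail fat minus liver was 0.52 (limma adjusted p = 0.153). Neither passed, although pituitary, at 37.89 to 54.12 TPM, did not overlap hypothalamus, at 25.48 to 29.18 TPM. Tail fat and liver overlapped. The SE of 0.28 was pooled over the 4 CON tissues. The spread of tail fat, where CON 2 was at 3.47 TPM, therefore enters both p-values. After quantile normalization both contrasts passed, at limma adjusted p = 0.0297 and 0.013. Pituitary minus hypothalamus also passed without tail fat CON 2 (limma adjusted p = 0.00604), a library outside that contrast. Tail fat minus liver passed with mitochondrial and ribosomal RNA removed (1.00, limma adjusted p = 0.00217) and without tail fat CON 3 (0.73, limma adjusted p = 0.0328). In RefSeq's annotation of ARS-UI_Ramb_v3.0, a sheep assembly, FAM13C overlaps PHYHIPL, a gene of the nervous system, and how shared reads were counted is not given in the sources used here.

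FAM13C did not reach 1 TPM in 4 libraries of liver or of tail fat, so it passed the filter in neither. In tail fat it was at 0.76, 0.82, 0 and 0.39 TPM in SA 1 to SA 4, against 0.7, 3.47, 0.38 and 1.15 TPM in CON 1 to CON 4. The groups overlapped (two-sided exact permutation p = 0.286, the smallest possible being 0.0286). In liver it was at 0.79, 0.24, 0.09 and 0.27 TPM in SA against 0.8, 0.49, 0.39 and 0.45 TPM in CON, again with overlap (exact permutation p = 0.286). Its change was 0.08 in hypothalamus (limma adjusted p = 0.956) and −0.32 in pituitary (limma adjusted p = 0.747). Of the family, 1 of 2 tested members was therefore called in liver, where 64.3% of all genes were called, and 0 of 3 in hypothalamus and in pituitary.

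The makeup of the family differed by tissue. In CON libraries FAM13A held a mean of 79.1% of the summed TPM of the 3 genes in tail fat, 69.7% in liver, 11.1% in pituitary and 8.83% in hypothalamus. In tail fat FAM13A held 14.7% to 28.5% of the family in SA libraries and 67.0% to 85.1% in CON libraries, while FAM13B held 46.4% to 74.8% in SA and 10.3% to 22.7% in CON. That shift follows from the FAM13A values that led to its choice. In liver FAM13A held 68.1% to 95.1% in SA and 52.0% to 86.4% in CON. Over all 32 libraries FAM13B and FAM13C varied together, with a Pearson r of 0.96 on the log2(TPM + 1) scale, and both were higher in brain libraries than in liver and tail fat. These libraries share 4 tissues, and r within a tissue was not computed. FAM13A had an r of 0.03 with FAM13B and −0.07 with FAM13C.

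**Figure D4:**
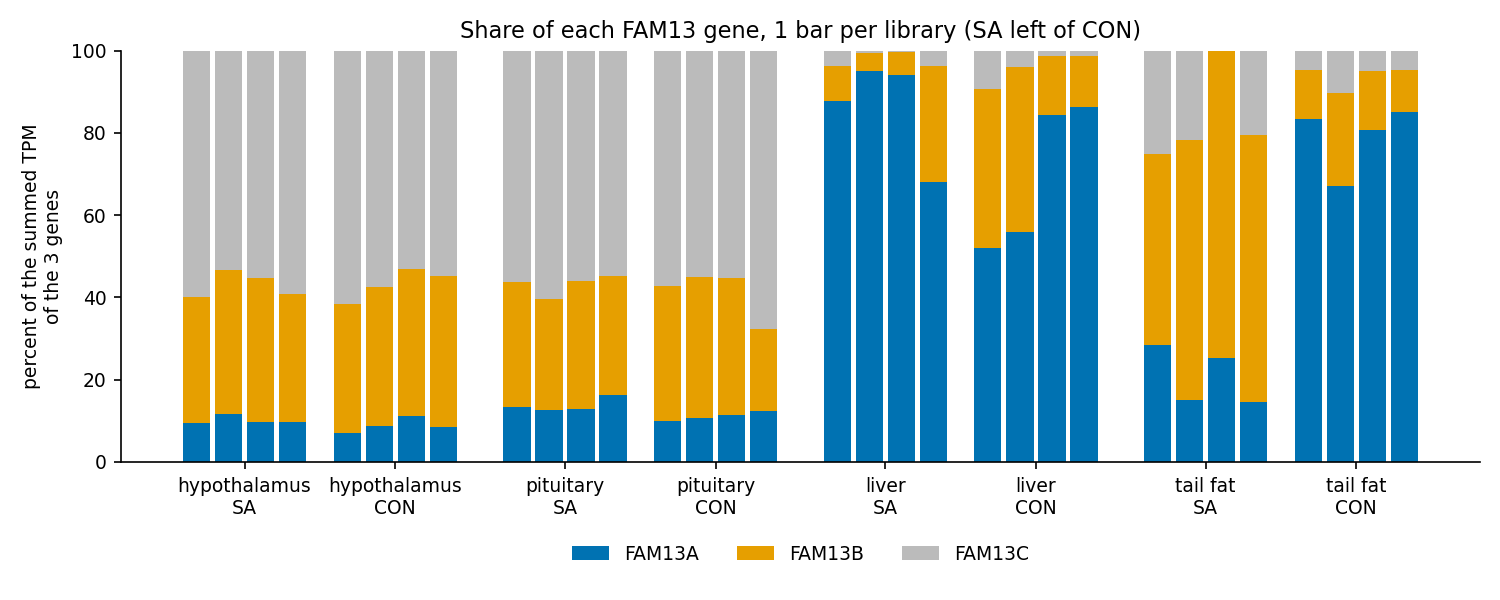
Percent of the summed TPM of the 3 FAM13 genes held by each gene, 1 stacked bar per library, SA left of CON within each labelled tissue. FAM13C and FAM13B make up most of the family in the brain libraries and FAM13A most of it in liver and in tail fat CON, against 14.7% to 28.5% in tail fat SA.

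Genes with the pattern most like FAM13A were sought as a description, and the tail fat values that chose FAM13A weigh on it. Over all 32 libraries, among 12488 genes, the 8 highest Pearson r values were 0.73 to 0.78. They belonged to NOP56, a core protein of small nucleolar ribonucleoproteins (0.78), ZMYM5, the cyclin CCNL1, the potassium channel gene KCNQ1, XPC, a DNA damage sensor of excision repair, ZNF596, DUS4L and SPATA9. In tail fat all 8 had negative changes, from −1.89 for KCNQ1 to −0.79 for NOP56, a direction that their choice favours.

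Within the 8 tail fat libraries the 8 highest r values, among 9234 genes, were 0.97 to 0.99. The highest was that of LRIG3, a membrane protein of the LRIG family, at 0.94, 0.86, 0.64 and 0.6 TPM in SA 1 to SA 4 and 4.09, 4.81, 2.79 and 4.46 TPM in CON 1 to CON 4. LRIG3 was low in every SA library and its groups did not overlap. KIAA0753, MSANTD2, TRIM45, XPC, ZNF331, FNBP4 and PNN followed. Their changes in tail fat ran from −2.48 to −1.41, as their choice by likeness to FAM13A favours, and are not tested here. TRIM45, a ubiquitin ligase, had the largest, at 0.72, 1.37, 1.37 and 0.25 TPM in SA and 10.43, 12.31, 4.04 and 14.18 TPM in CON. XPC was in both sets and stood at 2.22 to 4.22 TPM in tail fat SA and 6.68 to 19.2 TPM in tail fat CON.

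Genes of proteins reported to act with FAM13A were divided in tail fat, with 7 higher and 7 lower in SA of 14 tested. Of 22 listed, 17 were found by name. Limma called 0 of the 14, where 0.697% of all tail fat genes were called, so that a count of 0 is near the share over all genes. At an unadjusted p under 0.05 there was 1 of the 14, against 1596 of 11185 tail fat genes. Their median change was −0.04, against −0.06 for all tail fat genes. The smallest p belonged to YWHAG, a 14-3-3 adaptor protein (282 ± 107 TPM in SA and 154 ± 126 in CON, change 1.09, limma adjusted p = 0.344), and SIRT1, a deacetylase (4.14 ± 0.493 TPM in SA and 10.1 ± 9.53 in CON, change −0.78, limma adjusted p = 0.515). CPT1A, the carnitine transferase that lets fatty acids enter mitochondria, was at 3.65 ± 2.69 TPM in SA and 6.52 ± 4.10 in CON (change −0.72, limma adjusted p = 0.573). IRS1 was at 0.71 ± 0.221 TPM in SA and 1.02 ± 0.672 in CON and did not pass the filter. The phosphatase subunit gene PPP2CA was not found by name and was not analysed here.

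Of other genes named at human fat distribution loci, all 40 were found and 28 tested, with 13 higher and 15 lower in tail fat of SA sheep and a median change of −0.06. Limma called 0, near the 0.697% of all genes, with 3 at an unadjusted p under 0.05, against 1596 of 11185 tail fat genes. MEIS1, a homeobox transcription factor, was at 0.75, 1.04, 0.58 and 0.62 TPM in SA and 1.69, 4.29, 2.11 and 3.21 TPM in CON (change −1.09, limma adjusted p = 0.16), and it passed with mitochondrial and ribosomal RNA removed (−1.61, limma adjusted p = 0.0207). RSPO3, a secreted amplifier of Wnt signalling, was at 5.54, 15.14, 10.88 and 3.03 TPM in SA and 0.9, 7.17, 1.2 and 1.02 TPM in CON (change 1.55, limma adjusted p = 0.242), and it passed after quantile normalization (1.81, limma adjusted p = 0.0462). MEIS1 did not overlap between diets and RSPO3 did. This list shares PPARG and CEBPA with the adipocyte markers.

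Of 26 tested genes of Wnt signalling, 12 were higher and 14 lower in tail fat of SA sheep, with a median change of −0.05. Limma called 0, again near the 0.697% of all genes, with 4 at an unadjusted p under 0.05, against 1596 of 11185 tail fat genes. SFRP4, a secreted Wnt antagonist, was at 9.25 ± 2.46 TPM in SA and 3.92 ± 4.53 in CON (change 1.40, limma adjusted p = 0.256). The lists are not separate. The Wnt list shares CTNNB1, GSK3B and AXIN1 with the partners and RSPO3, ZNRF3 and KREMEN1 with the fat distribution genes. IRS1 is in both the partner and the fat distribution list.

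Calls in these lists depended on the scaling. After quantile normalization limma called 1 gene higher in tail fat, RSPO3, which is in both the fat distribution and the Wnt list. Of all 11185 genes tested, 186 were then called higher and 229 lower. With mitochondrial and ribosomal RNA removed it called 2 of 33 fat distribution genes, 1 of 27 Wnt genes and 2 of 6 neighbours of FAM13A lower. Of all 12723 genes tested, 1207 were then called lower and 167 higher, and the median was −0.40. The partners gave 0 calls under both scalings, with 1 and 4 at an unadjusted p under 0.05. Over all genes 2679 of 11185 and 4010 of 12723 were under 0.05.

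Of 6 tested genes that lie near FAM13A, 3 were higher and 3 lower in tail fat of SA sheep. In the ARS-UI_Ramb_v3.0 gene table FAM13A overlaps an unnamed protein-coding locus, with TIGD2 as the nearest named protein-coding gene on one side and HERC3, which holds NAP1L5, on the other. Limma called 0 of the 6, where 0.697% of all tail fat genes were called. At an unadjusted p under 0.05 there was 1 of the 6, against 1596 of 11185 tail fat genes. The 3 higher in SA were PPM1K (change 0.69), SPP1 (0.73) and PYURF (0.01), with limma adjusted p = 0.648, 0.609 and 0.994. HERC3, a ubiquitin ligase, was at 1.62, 1.42, 1 and 0.12 TPM in SA 1 to SA 4, against 2.14, 8.32, 1.14 and 2.4 TPM in CON 1 to CON 4 (change −0.98, limma adjusted p = 0.353), and the groups overlapped. ABCG2, an efflux transporter, was at 5.35, 8.22, 6.44 and 2.21 TPM in SA, against 7.44, 25.46, 11.13 and 14.71 TPM in CON (change −1.23, limma adjusted p = 0.286), also with overlap. With mitochondrial and ribosomal RNA removed both passed, HERC3 at −1.48 (limma adjusted p = 0.0465) and ABCG2 at −1.64 (limma adjusted p = 0.0339). That scaling called 1207 of 12723 tail fat genes lower. Under the filter, TIGD2 was at 0.15 to 0.30 TPM in SA and 0.21 to 0.88 TPM in CON, with overlap. NAP1L5 was at 0.02 to 0.14 TPM in SA and 0.18 to 3.63 TPM in CON. NAP1L5 did not overlap between diets, and its SA values were under 1 TPM, where the precision is unknown.

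**Figure D5:**
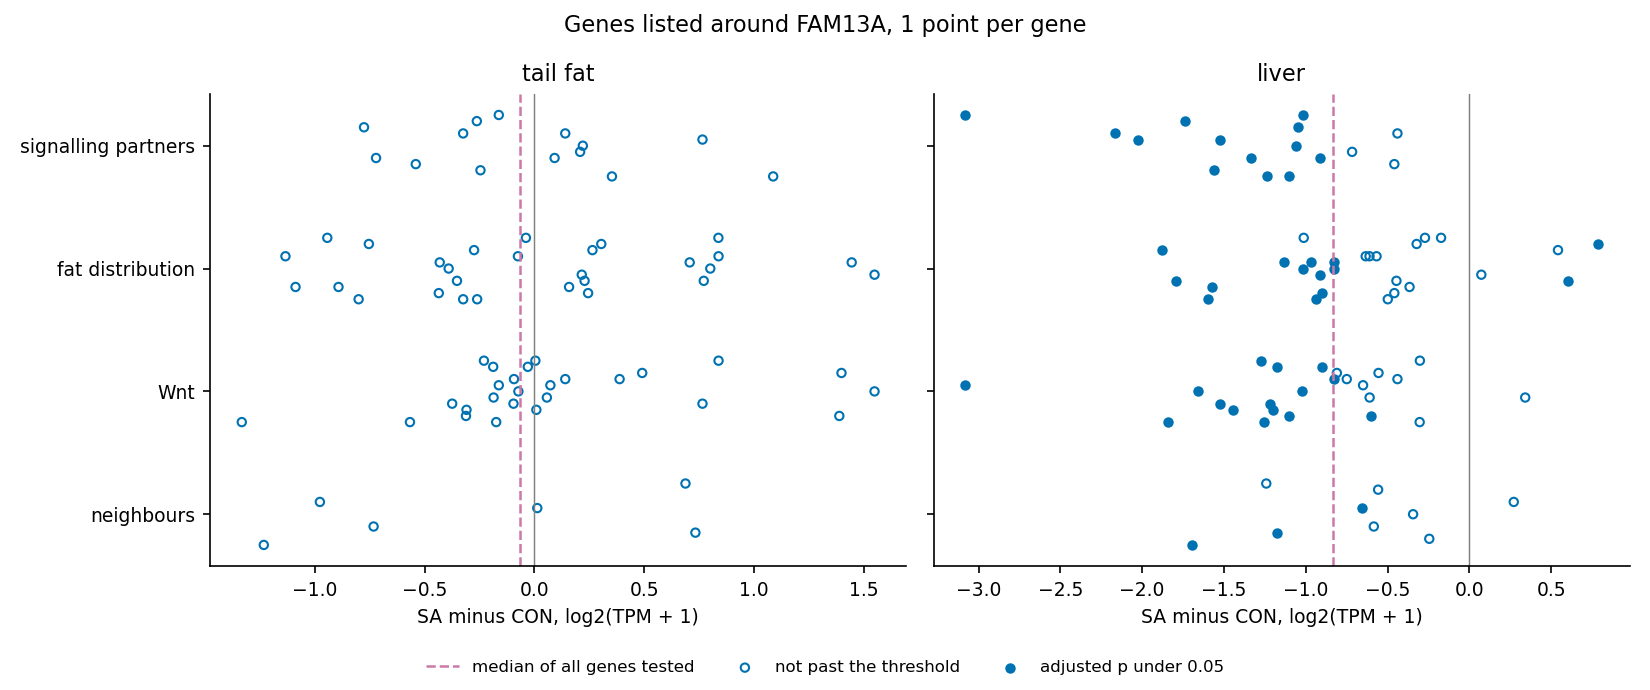
Change by diet (SA minus CON, log2(TPM + 1)) in tail fat (left) and liver (right) for the tested genes of 4 lists drawn up around FAM13A, 1 point per gene, filled where the limma adjusted p was under 0.05; dashed lines mark the median of all genes tested, −0.06 in tail fat and −0.83 in liver. No point is filled in tail fat, and most liver points are below 0.

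In liver the same lists were mostly lower in SA, as were most liver genes. Over all liver genes 59.1% were called lower and 5.21% higher. After quantile normalization 2440 of 11582 genes were called lower and 1886 higher. With mitochondrial and ribosomal RNA removed 1779 of 12850 were called lower and 1975 higher. Limma called 13 of 16 genes of FAM13A's partners lower and 0 higher, but 5 lower after quantile normalization and 3 lower with mitochondrial and ribosomal RNA removed. Among the 13 were β-catenin (CTNNB1, change −3.08, adjusted p = 2.87e-05), the 14-3-3 genes YWHAQ (change −2.03) and YWHAB (−2.17), and SIRT1 (−1.24). CPT1A was at 56.2 ± 14.8 TPM in SA and 106 ± 24.5 in CON (change −0.91, limma adjusted p = 0.0199), but it changed by 0.19 after quantile normalization and 0.14 with mitochondrial and ribosomal RNA removed, past the threshold in neither. IRS1 changed by −0.46 (limma adjusted p = 0.133), and by 0.23 and 0.37 under those 2 scalings, past the threshold in neither. The median change was −1.17 for partners, −0.63 for fat distribution genes, −0.96 for Wnt genes and −0.58 for neighbours, against −0.83 for all liver genes.

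Of fat distribution genes 12 of 27 were called lower and 2 higher in liver, against 59.1% lower and 5.21% higher over all genes. After quantile normalization 4 were called lower and 3 higher, and with mitochondrial and ribosomal RNA removed 3 lower and 3 higher of 32. Over all genes the first scaling called 2440 of 11582 lower and 1886 higher, and the second 1779 of 12850 lower and 1975 higher. The lower ones were led by the calcium channel ITPR2 (change −1.88), NISCH (−1.57), CMIP (−1.79) and CPEB4 (−1.13). The higher ones were GRB14, an inhibitor of the insulin receptor, at 18.4 ± 4.67 TPM in SA and 10.1 ± 2.07 in CON (change 0.79, limma adjusted p = 0.0192), and the growth factor VEGFB, at 4.18 ± 1.52 TPM in SA and 2.34 ± 0.397 in CON (change 0.60, limma adjusted p = 0.0324). Of Wnt genes 15 of 24 were called lower and 0 higher, near the 59.1% called lower over all genes, and 5 lower and 1 higher after quantile normalization. With mitochondrial and ribosomal RNA removed 2 were lower and 1 higher of 30. The 15 included the Wnt carrier WLS (−1.84), the kinase GSK3B (−1.53) and DVL1 (−1.17). Of the 15, CTNNB1 and GSK3B are also counted among the partners called lower, and RSPO3 and ZNRF3 among the fat distribution genes called lower.

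Of 9 neighbours the ion channel PKD2 (−1.18), ABCG2 (−1.70) and NAP1L5 (−0.65) were called lower, where 59.1% of all liver genes were. After quantile normalization 1 neighbour was called, and with mitochondrial and ribosomal RNA removed 0 were, with 3 at an unadjusted p under 0.05. Over all genes the first scaling called 4326 of 11582. The second called 3754 of 12850, with 5320 at an unadjusted p under 0.05.

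Apart from CPT1A, which lost its call and turned its direction under both scalings, and IRS1, 16 genes were named here for liver from the 4 lists, of which 13 kept their direction and call after quantile normalization and 8 with mitochondrial and ribosomal RNA removed. Of the 16, ABCG2, CPEB4 and NAP1L5 lost their call under both, and DVL1, GSK3B, NISCH, PKD2 and SIRT1 with mitochondrial and ribosomal RNA removed. GRB14 and VEGFB were higher and called under both. Hepatocyte markers summed to 8371 to 31917 TPM in SA livers and 102132 to 116453 TPM in CON livers, with 11 of 12 called lower, and CCDC152 was listed at 168 to 842 TPM in SA livers and 0 in CON livers. All 4 SA livers differ from all 4 CON livers in these measures, so diet and that difference between libraries cannot be told apart.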

How the data were processed

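The authors deposited TPM per gene in 1 table, with a column for each of 32 libraries; columns summed to between 936939 and 987320. The 8 columns of group means deposited beside them were not used. Per the labels' protocols, mRNA was captured on oligo(dT) beads and made into stranded libraries. Tools named in the submitters' processing notes are fastp, HISAT2 and RSEM. Tool versions, build, annotation and how strand was counted: not given in the sources used here. TPM holds no depth, so no counting interval can be given. Groups were taken from the sample labels, and no 2 libraries held identical values.

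For each labelled tissue, limma 3.58.1 was fitted on log2(TPM + 1) to genes that reached 1 TPM in 4 or more of its 8 libraries, in R 4.3.3 (empirical Bayes with trend and robust settings). Two-sided p-values had Benjamini-Hochberg adjustment across every gene in the fit, with a threshold of 0.05. Tissues were compared over the 16 CON libraries in 6 contrasts, with the spread of each gene pooled over the 4 tissues. Members under the filter were compared by an exact permutation test. The fits were tested on simulated data. Alternatives were another pseudocount (0.1), no filter, quantile normalization, removal of 57 mitochondrial and ribosomal RNA genes with rescaling, a joint fit, the replicate number as a block, and leaving out each library, with 3 libraries then needed for the filter.

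The members and gene lists were chosen with earlier results of these data known. Named genes were the family, up to 4 members of smallest p called in each direction per list in tail fat and liver, or the 2 of smallest p where none was called, together with SIRT1, CPT1A and IRS1, and the 8 genes with the highest Pearson r with FAM13A over all libraries and over tail fat. AGPAT2, the marker genes, CCDC152, TIGD2, PPM1K, SPP1 and PYURF were named after their values were seen. Some listed genes and gene groups are not reported here. Gene symbols are those of the table, in which 13350 of 30722 genes have no name. Coordinates are not given because the build is not stated.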

Additional observations from a re-analysis of the deposited data

How the results depend on the processing

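Across 33 results, 582 alternative values were computed, of which 527 were rated the same as the main value. For most results this meant the same direction and side of the threshold. For FAM13A between diets in tail fat, which has no test, it meant the same direction and a shift smaller than the SD within diets. For numbers of genes called it meant staying within a fixed ratio of the main number. The FAM13A change in tail fat was −4.43 with a pseudocount of 0.1, −4.04 with mitochondrial and ribosomal RNA removed, and −3.61 to −3.05 when 1 library was left out. FAM13A in liver was 0.03 to 1.04 when 1 library was left out. FAM13B in liver was −0.19 after quantile normalization and −0.11 with mitochondrial and ribosomal RNA removed. FAM13B reversed in pituitary after quantile normalization (0.0071), in tail fat without CON 2 and SA 1 (0.019), and for tail fat minus liver with mitochondrial and ribosomal RNA removed (0.016). Of the tissue contrasts below, those of FAM13A with tail fat rest on values that chose it and are descriptions with no test. FAM13A tail fat minus pituitary was 1.98 after quantile normalization and 1.03 with mitochondrial and ribosomal RNA removed. Outside those, contrasts that crossed the threshold after quantile normalization were FAM13A liver minus pituitary (1.55), FAM13C tail fat minus liver (0.56) and FAM13C pituitary minus hypothalamus (0.595). With mitochondrial and ribosomal RNA removed they were FAM13A liver minus hypothalamus (0.94) and FAM13C tail fat minus liver (1.00). When 1 library was left out, FAM13B ranged from −0.087 to 0.079 in hypothalamus and FAM13A from −0.10 to 0.16 in pituitary. In the same way FAM13A ranged from −0.31 to 0.50 for tail fat minus liver and from 1.05 to 1.86 for liver minus hypothalamus, FAM13B from −0.92 to −0.24 and FAM13C from 0.17 to 0.73 for tail fat minus liver, and FAM13C from 0.62 to 0.79 for pituitary minus hypothalamus.

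The number of genes called by limma moved most. In tail fat, with 78 genes, it was 0 with no filter (2588 at an unadjusted p under 0.05), 415 after quantile normalization, 1374 with mitochondrial and ribosomal RNA removed, 1938 in a joint fit of all libraries, 402 without CON 2 and SA 1, and 7 to 328 when 1 library was left out, lowest without SA 3 and highest without CON 2. With mitochondrial and ribosomal RNA removed 167 of those genes were higher and 1207 lower in SA, against 31 higher and 47 lower in TPM as deposited. In liver, with 7445 genes, it was 4326 after quantile normalization (1886 higher and 2440 lower) and 3754 with mitochondrial and ribosomal RNA removed (1975 higher and 1779 lower), against 603 higher and 6842 lower. In hypothalamus and pituitary it was 3 and 4 in the joint fit, and 0 to 2 and 0 to 3 when 1 library was left out. The cause of these moves was not tested.

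With the replicate number as a block, 413 genes were called in tail fat and the FAM13A change there was −3.26 with an SE of 0.53; no FAM13 call changed. SA and CON libraries come from different sheep, so a shared number there cannot mark a shared animal. Same-numbered SA and CON libraries of tail fat correlated at −0.34 to 0.25 in their deviations from the group means. Between tissues of CON, same-numbered libraries correlated at −0.30 to 0.15. No comparison had every pair over 0.1, so the numbers were not taken to pair the libraries. Depth is unknown, which leaves the precision of values under 1 TPM, such as FAM13A in tail fat SA and FAM13C in liver, unknown too.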

Other observations

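Within liver, where FAM13A varied among sheep of both diets, the 8 genes with the highest Pearson r with it over the 8 libraries, a set chosen after seeing the data, had r values of 0.90 to 0.96. CHKA, the choline kinase that starts phosphatidylcholine synthesis, had the highest, at 11.8, 31.12, 23.79 and 6.63 TPM in SA 1 to SA 4 and 6.46, 8.31, 20.24 and 27.23 TPM in CON 1 to CON 4. Its high and low livers were those of FAM13A, with SA 2 highest and SA 4 and CON 1 lowest. ZNF821, THPO, RPP38, ZBED4, AASDH, NOP56 and TTI2 followed. THPO, the gene of the platelet hormone thrombopoietin, was at 5.17, 11.2, 5.95 and 2.28 TPM in SA livers and 3.25, 3.4, 5.93 and 4.97 TPM in CON livers. NOP56 was at 82.44, 83.1, 63.34 and 36.09 TPM in SA livers and 32.65, 34.35, 54.28 and 66.58 TPM in CON livers. Their liver changes between diets were −0.07 to 0.48.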
